A study of Mus musculus with 161 samples.

Results

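The open sites of the mouse major histocompatibility complex (MHC) were taken as the sites of the accessibility count table on chromosome 17 whose midpoint lies from 33.5 to 38.0 Mb (mm10, that is GRCm38). These were 498 of the 150203 sites counted in the series, with 5706 other sites on the same chromosome. The window was set by position. Accessibility was measured by ATAC-seq, in which a transposase inserts sequencing adapters where chromatin is open, and it was set beside bulk RNA-seq of the genes in the same window.

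The cells were macrophages grown from the bone marrow of wild-type C57BL/6J mice of 6 to 10 weeks, in base medium with the growth factor MCSF. M1 24 h cells received 100 ng/mL of the bacterial product lipopolysaccharide (LPS) with 25 ng/mL of interferon-γ (IFN-γ) for 24 h. M1 → M0 96 h cells had the same 24 h of stimulation, were washed and then spent 72 h in base medium, which makes 96 h in all. M0 0 h cells were collected unstimulated at the time of stimulation. ATAC-seq has 3 libraries in each of these conditions and RNA-seq also 3, and RNA-seq further has 4 libraries of cells kept unstimulated to 96 h (M0 96 h). The series holds no ATAC-seq of M0 96 h cells, so for the sites the effect of the washout and that of time in culture cannot be told apart. Replicates are labelled biological, but nothing states that each came from its own mouse or dish, so the p-values cover only the variation among these libraries.

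The MHC holds the genes by which cells show peptides to T cells. Class I molecules, a heavy chain joined to β2-microglobulin, carry peptides that the immunoproteasome cuts and the TAP transporter moves into the endoplasmic reticulum, and most cells express them. Class II molecules, an α and a β chain, carry peptides from material that was taken up, and their transcription depends on the coactivator CIITA at promoters with conserved X and Y boxes. IFN-γ raises both in macrophages. Between the class II and class I D genes lies the class III stretch, with complement and TNF genes, and the far end of the mouse region holds class I M genes among olfactory receptor genes.

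Sequences are shown for the sites that gained or lost most in M1 24 h over M0 0 h, among called sites that averaged 50 normalized counts or more in either group and whose libraries did not overlap (the Ubd and Olfr99 sites also stayed highest after washout), read from the GRCm38 genome on the + strand around the site's midpoint, and for 2 class II promoters whose RNA changed in both directions. Capitals mark matches, on either strand, to 1 of 7 motifs searched in the 300 bases around the midpoint of every site: GAAANNGAA (IRF), TTCNNNGAA (GAS), GGGANNTTC (NF-κB), TGANTCA (AP-1), GAGGAAGT (PU.1), CCTAGNAAC (X box) and GATTGG (inverted CCAAT, the Y box). A match describes letters only and no match says only that these letters are not in the stretch shown. The 3 sites that gained most were the following, and the first is shortened to 155 bases to leave out an annotated untranslated region.
Ubd site, 8157 bases before Ubd (chr17:37185731-37185885): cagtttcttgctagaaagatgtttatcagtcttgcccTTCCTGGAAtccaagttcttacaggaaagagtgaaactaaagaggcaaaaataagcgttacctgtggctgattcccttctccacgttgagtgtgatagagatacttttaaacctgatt
Hnrnpm site, in an intron of Hnrnpm (chr17:33678915-33679214): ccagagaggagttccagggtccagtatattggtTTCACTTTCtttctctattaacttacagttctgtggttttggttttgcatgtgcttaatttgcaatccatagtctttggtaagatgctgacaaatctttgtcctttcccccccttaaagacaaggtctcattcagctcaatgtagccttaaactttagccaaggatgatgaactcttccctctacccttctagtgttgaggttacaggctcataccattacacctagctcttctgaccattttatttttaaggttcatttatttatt
Olfr99 site, 2136 bases before Olfr99 (chr17:37285447-37285746): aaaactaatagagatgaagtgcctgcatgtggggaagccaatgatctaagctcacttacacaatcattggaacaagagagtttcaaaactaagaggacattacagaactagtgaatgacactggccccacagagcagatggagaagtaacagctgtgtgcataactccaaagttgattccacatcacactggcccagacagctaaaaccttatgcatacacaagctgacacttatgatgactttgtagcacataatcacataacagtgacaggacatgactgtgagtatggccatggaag

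The Ubd site held 1 GAS match and the Hnrnpm site 1 IRF match, while none of the 7 motifs was in the Olfr99 stretch. GAS was in 9.03% and IRF in 12.0% of the windows of 127086 tested sites with sequence. The 2 sites that lost most were these.
Angptl4 site, 335 bases before Angptl4 (chr17:33779329-33779628): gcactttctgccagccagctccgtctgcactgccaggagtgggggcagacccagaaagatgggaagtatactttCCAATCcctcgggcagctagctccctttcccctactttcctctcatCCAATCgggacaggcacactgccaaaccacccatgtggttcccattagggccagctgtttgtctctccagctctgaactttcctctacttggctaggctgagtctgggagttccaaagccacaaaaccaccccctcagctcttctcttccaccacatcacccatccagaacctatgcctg
Znrd1as site, 7639 bases past the start of Znrd1as (chr17:36971312-36971611): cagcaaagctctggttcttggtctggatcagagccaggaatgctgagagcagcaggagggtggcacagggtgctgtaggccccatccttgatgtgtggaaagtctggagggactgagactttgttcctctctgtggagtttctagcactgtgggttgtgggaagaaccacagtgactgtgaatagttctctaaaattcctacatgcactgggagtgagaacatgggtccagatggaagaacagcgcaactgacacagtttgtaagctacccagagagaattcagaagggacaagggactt

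The Angptl4 stretch held 2 Y-box matches and the Znrd1as stretch none of the motifs. The class II promoters, 150 bases before the start on the gene's own strand, come from RefSeq (GRCm38.p6), where 61 of the 80 listed genes of the region had an entry, and these were chosen after their values were seen.
H2-Aa promoter, - strand (chr17:34287824-34287973): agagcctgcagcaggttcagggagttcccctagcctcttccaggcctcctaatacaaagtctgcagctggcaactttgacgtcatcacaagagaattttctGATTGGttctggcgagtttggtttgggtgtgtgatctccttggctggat
H2-Eb1 promoter, + strand (chr17:34305717-34305866): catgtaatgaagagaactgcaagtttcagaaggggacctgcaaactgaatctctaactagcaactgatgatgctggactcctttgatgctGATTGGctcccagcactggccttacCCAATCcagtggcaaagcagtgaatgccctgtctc

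The Y box began 49 bases before the start of H2-Aa. In H2-Eb1 it lay 60 bases before the start, with a reverse copy at 35 bases. Among 32851 RefSeq promoters, 10.9% held GATTGG or its reverse in the same 150 bases.

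The libraries held 3399222, 7917767 and 1730488 counted ATAC reads in M1 24 h, 8194529, 7099293 and 6316477 in M1 → M0 96 h and 9354620, 5004005 and 7365338 in M0 0 h. The region's sites took 7499 to 40561 of these reads. M1 replicate 3 was the shallowest library, and 74 of the 498 sites had no read in it, against 23 in M1 replicate 1 and 0 to 7 in the other libraries. RNA values were available as FPKM, fragments scaled to transcript length and library size, for 8307 genes that each reached at least 10.09 FPKM in some library, so a gene outside that table was not analysed here. Ubd, Cfb and H2-Q7, for example, passed that level in M1 and in no M1 → M0 or M0 0 h library. For such genes a rise in M1 was partly built into their presence in the table, and its test is no independent support. By their RNA the cultures carried macrophage markers in all groups (7 of 8 listed genes in the table, summed FPKM 4889 to 6414.8 in M1, 4042.6 to 6209.4 in M1 → M0 and 9346.2 to 10460.2 in M0 0 h). Markers of neutrophils and their precursors (6 of 6 genes) summed to 20.5 to 39.6 FPKM in M1, 4.23 to 11.9 in M1 → M0 and 906.7 to 2556.8 in M0 0 h, and the B cell gene Ighm, the 1 of 6 in the table, lay at 0.466 to 1.16, 0.882 to 1.57 and 72.1 to 95.3 FPKM in the same order. Both sets were thus highest in M0 0 h, and their part in the differences from M0 0 h below was not tested. Dendritic cell genes (2 of 7, Clec9a and Batf3) summed to at most 7.36 FPKM in M1, 3.28 in M1 → M0 and 5.12 in M0 0 h, fibroblast genes (2 of 3) to at most 25.6, 0.941 and 16.4 FPKM, and no T or NK cell gene of 4 was in the table. Fewer cells of a type and less RNA per cell cannot be told apart in such bulk samples.

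The 498 sites had a median length of 466 bases (200 to 2196), against 412 over all sites, and lay a median of 2706 bases from the nearest start of a protein-coding gene. Promoter sites, within 500 bases of an annotated start, were 198 of them or 39.8%, against 15.5% of all sites of the series. A further 151 were intergenic (30.3%, against 34.5% of all sites), 123 intronic (24.7% against 45.6%) and 26 exonic (5.22% against 4.43%). The window held 217 protein-coding genes, and the sites were nearest to 168 of them. Sites were densest between H2-K1 and Notch4, the class II stretch, with 109 sites or 19.18 per 100 kb, followed by Notch4 to H2-D1 (class III) with 113 sites or 16.18 per 100 kb. The stretch from Pou5f1 to H2-T24 held 69 sites (13.81 per 100 kb), that before H2-K1 60 (12.1 per 100 kb), H2-T24 to Rpp21 30 (12.0 per 100 kb) and H2-D1 to Pou5f1, with the class I D and Q genes, 23 (9.45 per 100 kb). Beyond Rpp21, where the M and olfactory receptor genes lie, 94 sites covered 1744.4 kb, or 5.39 per 100 kb.

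Of the 498 sites, 452 passed the filter of more than 10 normalized counts in at least 1 library and were tested, among 127307 sites in all. A normalized count is a site's read count divided by the library's size factor. Among the 452, 345 passed the filter in all 3 groups and 59 in 2 groups. The others passed in 1 group alone, 27 in M1, 7 in M1 → M0 and 18 in M0, so a difference was built into their passing, and they made up 9 of the 122 calls of M1 against M0 below. They also gave 1 higher and 7 lower calls of M1 → M0 over M0, and 2 higher and 8 lower calls of M1 → M0 over M1. Differences are log2 fold changes with their standard error from edgeR's quasi-likelihood test, and p-values are Benjamini-Hochberg adjusted over all sites tested, with a call below 0.05.

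Accessibility of the region rose at more sites than it fell in M1 24 h over M0 0 h. Higher sites numbered 82 of 452 (18.1%) and lower sites 40 (8.85%), and over all sites tested 17.3% were higher and 15.2% lower. The higher share was thus near that of the genome and the lower share below it. The median log2 difference was 0.05 in the region and -0.06 over all sites. The libraries of M1 lay wholly above those of M0 at 92 sites (20.4%, against 19.3% of all sites tested) and wholly below at 70 (15.5%, against 23.1%). With DESeq2 the lower sites numbered 26. The rise was unevenly spread along the region. In the H2-K1 to Notch4 block 26 of 97 tested sites were higher and 5 lower (median 0.32), and in the block from H2-D1 to Pou5f1 8 of 20 were higher, or 40.0%, and 2 lower (median 0.47). Class III had 19 higher and 4 lower of 107 (0.12), the block before H2-K1 9 and 6 of 57 (0.08) and H2-T24 to Rpp21 5 and 3 of 28 (0.04). From Pou5f1 to H2-T24, by contrast, 4 of 64 were higher and 7 lower (-0.14), and beyond Rpp21 11 of 79 were higher and 13 lower (-0.20).

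**Figure D1:**
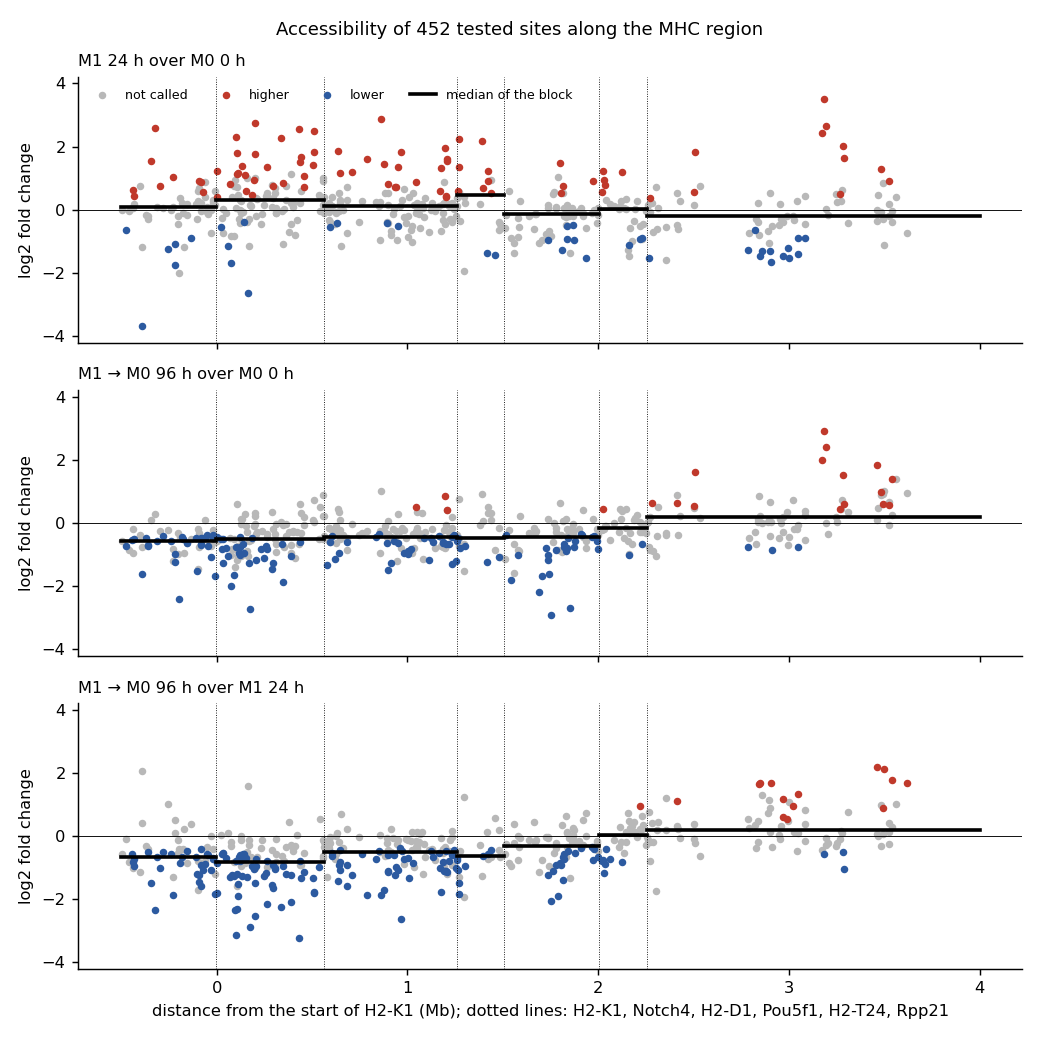
Log2 fold change of each of the 452 tested sites (points) against its distance in Mb from the start of H2-K1, for M1 24 h over M0 0 h, M1 → M0 96 h over M0 0 h and M1 → M0 96 h over M1 24 h, with coloured points past the test and black bars at the median of each block. The first panel has its highest block median, 0.47, between H2-D1 and Pou5f1, while in the second every block before Rpp21 has a median below 0 and the block beyond Rpp21 lies at 0.18.

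By position relative to genes, the intronic sites gained most often in M1. Of 107 intronic sites 33 were higher (30.8%) and 7 lower, against 19.7% higher among all intronic sites of the series. Promoter sites were higher at 26 of 191 (13.6%, against 10.5% of all promoter sites) and lower at 15 (7.85%, against 19.5%). Intergenic sites were higher at 22 of 130 (16.9%, against 17.4% of all intergenic sites) and lower at 13 (10.0%, against 15.9%). Exonic sites were higher at 1 of 24 (4.17%, against 18.0%) and lower at 5 (20.8%, against 14.8%).

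Sites are named below by the size of their difference among those with enough counts and no overlap between libraries, 36 higher and 16 lower in M1. The site with the largest gain lay 8157 bases before Ubd (chr17:37185404-37186068), a gene for a ubiquitin-like protein induced by inflammatory cytokines, and within 500 bases of the annotated start of the pseudogene Olfr753-ps1. It had 82.0, 71.8 and 52.2 normalized counts in M1, 41.9, 56.9 and 44.5 in M1 → M0 and 4.66, 11.6 and 4.53 in M0. Every M1 and M1 → M0 library thus lay above every M0 library. The difference was 3.50 ± 0.30 for M1 over M0 (adjusted p = 9.21e-16), 2.92 ± 0.30 for M1 → M0 over M0 (adjusted p = 8.09e-12) and -0.58 ± 0.21 for M1 → M0 over M1 (adjusted p = 0.0373). Ubd RNA lay at 4.35, 13.8 and 12.6 FPKM in M1, at 0.113, 0.255 and 0.0997 in M1 → M0 and at 0.0351, 0.112 and 0.214 in M0, so after washout its values overlapped those of M0 0 h while the site's did not. A second site by Ubd, 1085 bases into it (chr17:37194826-37195130) and chosen after its values were seen, had 14, 13.1 and 6.52 normalized counts in M1, 6.76, 10.3 and 13.3 in M1 → M0 and 1.16, 2.32 and 2.27 in M0. It passed the filter only through M1 and M1 → M0, where it is high, so no test is given for it.

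An intronic site of Hnrnpm (chr17:33678772-33679357), a gene for an RNA-binding protein of splicing, overlapped M0 again after washout. It had 62.8, 61.7 and 39.1 normalized counts in M1, 14.2, 11.1 and 8.01 in M1 → M0 and 6.99, 13.9 and 9.06 in M0. The differences were 2.6 ± 0.32 for M1 over M0 (adjusted p = 6.99e-10), 0.27 ± 0.38 for M1 → M0 over M0 (adjusted p = 0.669) and -2.33 ± 0.31 for M1 → M0 over M1 (adjusted p = 1.32e-08). Hnrnpm RNA moved the other way in M1, with 77.5, 66.9 and 63.7 FPKM in M1, 82.2, 80.4 and 74.9 in M1 → M0 and 92.8, 87.2 and 100.2 in M0 (log2 difference of M1 over M0 -0.43 by limma, adjusted p = 6.17e-05).

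A pair of sites lay 2136 and 3423 bases before the olfactory receptor gene Olfr99. The nearer one (chr17:37285271-37285922), at the start of the pseudogene Olfr756-ps1, had 148.3, 121.9 and 117.4 normalized counts in M1, 96, 81.4 and 95.2 in M1 → M0 and 26.8, 29.0 and 40.0 in M0. Its differences over M0 were 2.01 ± 0.17 in M1 (adjusted p = 1.44e-15) and 1.51 ± 0.17 in M1 → M0 (adjusted p = 1.46e-10), so 3 days after the wash no M1 → M0 library reached down to M0. The farther one (chr17:37286614-37287154) had 106.4, 79.1 and 110.9 in M1, 44.6, 49.0 and 40.9 in M1 → M0 and 29.7, 27.8 and 31.7 in M0. It was higher by 1.63 ± 0.20 in M1 (adjusted p = 3.48e-10) and by 0.59 ± 0.20 in M1 → M0 (adjusted p = 0.0288), again with no overlap between the libraries of either condition and those of M0.

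The other 2 of the 6 largest gains lay in the TNF cluster, which encodes the cytokines TNF and lymphotoxin. The first (chr17:35198085-35198786), 3569 bases past the start of Tnf, had 76.7, 71.1 and 42.4 normalized counts in M1, 27.7, 28.5 and 39.2 in M1 → M0 and 10.5, 19.7 and 24.2 in M0. It was higher by 1.95 ± 0.26 in M1 (adjusted p = 7.06e-09) and by 0.85 ± 0.27 in M1 → M0 (adjusted p = 0.0169). The second (chr17:35209797-35210915), 5004 bases before Lta, had 169.2, 174.1 and 150 in M1, 83.2, 76.7 and 68.5 in M1 → M0 and 60.5, 61.4 and 52.1 in M0, with differences over M0 of 1.54 ± 0.14 (adjusted p = 3.29e-14) and 0.40 ± 0.15 (adjusted p = 0.0428). All 3 washout libraries lay above the 3 of M0 at both sites, at a level between M1 and M0.

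**Figure D2:**
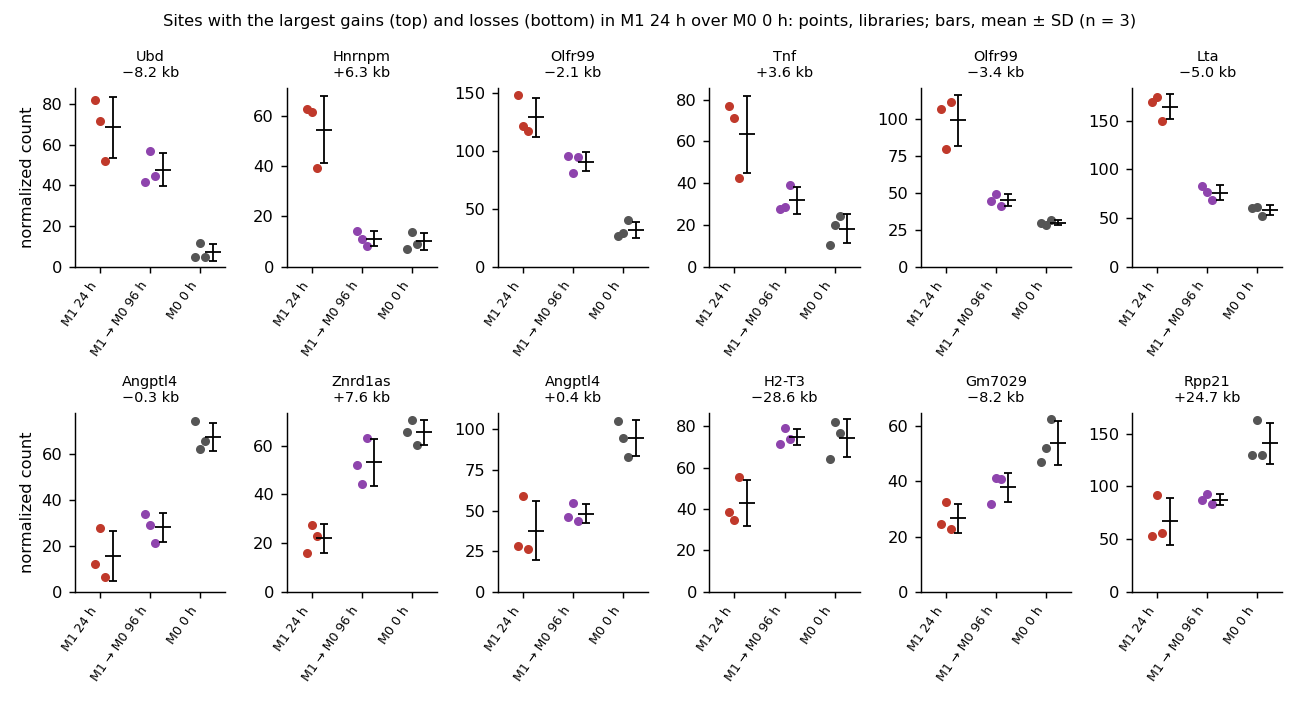
Normalized count of the 6 sites that gained most (top) and the 6 that lost most (bottom) in M1 24 h over M0 0 h, with 1 point per library and the mean ± SD of 3 libraries, in M1 24 h, M1 → M0 96 h and M0 0 h. The Ubd site stayed at 41.9 to 56.9 after washout, above M0 at 4.53 to 11.6, while the Hnrnpm site lay at 8.01 to 14.2 after washout, overlapping M0 at 6.99 to 13.9.

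Within the class II block lay 2 further sites of high values in M1, both in annotated introns, that were below the count needed for naming and were chosen after their values were seen. A site 1574 bases before the start of Tap2 (chr17:34201845-34202063), the gene of a TAP subunit, had 26.2, 47.2 and 55.4 normalized counts in M1, 8.11, 6.33 and 7.12 in M1 → M0 and 9.32, 2.32 and 5.29 in M0. It passed the filter only through M1, where it is high, so its difference is given as these values alone. A site 10651 bases past the start of Brd2 (chr17:34102898-34103265), the gene of a bromodomain protein that binds acetylated histones, had 38.4, 38.4 and 55.4 in M1, 3.38, 6.33 and 4.45 in M1 → M0 and 6.99, 11.6 and 7.55 in M0 (2.32 ± 0.38). The M1 → M0 libraries lay below those of M1 at both, overlapping M0 at the Tap2 site and below M0 at the Brd2 site, where the difference from M0 did not pass (-0.82, adjusted p = 0.245).

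With the same minimum of counts, the largest losses in M1 were at Angptl4, the gene of a secreted inhibitor of lipoprotein lipase. The site 335 bases before its start (chr17:33779150-33779807) had 12.2, 27.6 and 6.52 normalized counts in M1, 33.8, 29.3 and 21.4 in M1 → M0 and 74.5, 62.5 and 65.7 in M0. It fell by 1.75 in M1 (SE 0.26, adjusted p = 7.61e-08) and by 1.25 in M1 → M0 (SE 0.21, adjusted p = 4.16e-06), and the 2 stimulated conditions did not differ beyond their spread (0.50 ± 0.29 for M1 → M0 over M1, adjusted p = 0.219). The site 385 bases past the start (chr17:33780518-33781799) had 27.9, 58.8 and 26.1 in M1, 46.0, 54.6 and 43.6 in M1 → M0 and 105.4, 95 and 83.1 in M0, with differences over M0 of -1.07 ± 0.19 (adjusted p = 6.72e-06) and -0.98 ± 0.17 (adjusted p = 5.7e-06). Angptl4 RNA had another course, with 2.13, 6.59 and 5.56 FPKM in M1, 13.0, 24.5 and 25.7 in M1 → M0 and 21.1, 18.5 and 19.0 in M0. It fell in M1 (-1.93, adjusted p = 0.000323) and after washout its range covered that of M0 0 h (0.05), although both sites were still lower. In M0 96 h the RNA lay at 30.6, 31.9, 37.6 and 42.4 FPKM, above every M1 → M0 library, but that difference did not pass the test (-0.78, adjusted p = 0.259).

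Of the other losses, 2 overlapped M0 after washout. A site 7639 bases past the start of Znrd1as (chr17:36971089-36971835) and at the start of the pseudogene H2-M6-ps had 15.7, 27.6 and 22.8 normalized counts in M1, 52.1, 44.3 and 63.2 in M1 → M0 and 65.8, 70.6 and 60.4 in M0 (-1.46 ± 0.23 in M1, adjusted p = 6.12e-07). A site 28583 bases before H2-T3 (chr17:36218433-36219309) had 38.4, 34.8 and 55.4 in M1, 71.7, 79.1 and 73.9 in M1 → M0 and 64.0, 82.2 and 77.0 in M0 (-0.91 ± 0.20 in M1, adjusted p = 0.000181). At both, M1 → M0 was called higher than M1, by 1.16 ± 0.24 (adjusted p = 0.000151) and 0.94 ± 0.20 (adjusted p = 0.00016). The site 24712 bases past the start of Rpp21 (chr17:36231153-36232125), a gene of a ribonuclease P subunit, had 52.3, 92.1 and 55.4 in M1, 86.5, 92.5 and 82.8 in M1 → M0 and 129.8, 163.3 and 129.2 in M0, and it was lower in both conditions (-0.88 ± 0.16 and -0.66 ± 0.13). The last, 8179 bases before Gm7029 (chr17:33865215-33866103), had 24.4, 32.6 and 22.8 in M1, 31.8, 41.1 and 40.9 in M1 → M0 and 47.2, 52.1 and 62.7 in M0 (-0.90 ± 0.24 in M1, adjusted p = 0.002).

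After washout the region as a whole was less accessible than in M0 0 h. In M1 → M0 96 h over M0 0 h, 20 of 452 sites were higher (4.42%, against 10.6% of all sites tested) and 126 were lower (27.9%, against 9.16% of all sites tested). The median log2 difference was -0.41 in the region and 0.0 over all sites. The libraries lay wholly above M0 at 41 sites (9.07%, against 19.7% of all sites tested) and wholly below at 191 (42.3%, against 19%). The lower sites numbered 68 with DESeq2, 83 without M0 replicate 1 and 78, 75 and 79 without M1 → M0 replicates 1, 2 and 3, and the higher ones 7 with DESeq2, 9 without M0 replicate 1, 12 without M0 replicate 2 and 11 without M1 → M0 replicate 1. The fall was spread over the blocks before Rpp21, with 29 of 57 lower before H2-K1 (50.9%), 30 of 97 from H2-K1 to Notch4, 32 of 107 in class III, 5 of 20 from H2-D1 to Pou5f1, 25 of 64 from Pou5f1 to H2-T24 and 2 of 28 from H2-T24 to Rpp21. Together these blocks had 4 higher and 123 lower of 373 sites (33.0%, median -0.47). The block beyond Rpp21 went the other way, with 16 higher (20.3%) and 3 lower of 79 (median 0.18).

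Base composition moved with this difference. Over 127086 sites of the genome the log2 difference of M1 → M0 over M0 ran against the GC content of the site, with Pearson's r = -0.30 across sites, which are not independent and come from the same 6 libraries. The same r was -0.22 for M1 over M0 and 0.02 for M1 → M0 over M1. The region's sites had a median GC content of 50.5%, against 47.2% over all sites, and within the region it was 51.8% before Rpp21 and 45.9% beyond it. With an offset for the GC content of the site and of the 200 kb around it, an alternative added after the data were seen, the sites before Rpp21 had 7 higher and 59 lower (median -0.30), and the block beyond Rpp21 had 8 higher and 5 lower (0.04). Fewer sites were thus lower before Rpp21 and fewer higher beyond it. The part of base composition in the difference between the conditions was not tested otherwise. Among the sites in the GC-richest decile of 200 kb surroundings, the median was -0.48 over 161 sites of the region and -0.34 over all sites of that decile. The fall also did not stop at the edge of the region, since in the 4.5 Mb before it (29.0 to 33.5 Mb) 2 sites were higher and 104 lower of 313 (33.2%, median -0.60), and in the 4.5 Mb before that 5 and 117 of 450 (26.0%, -0.41). On the other side, from 38.0 to 42.5 Mb, 9 were higher and 1 lower of 32.

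**Figure D3:**
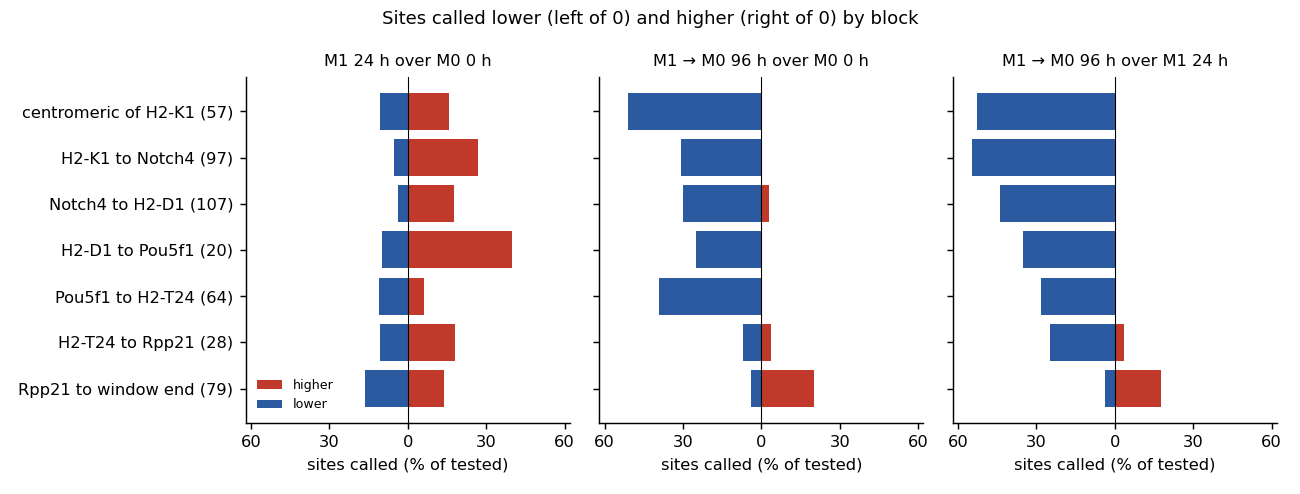
Percent of tested sites called higher (right of 0) and lower (left of 0) in each of the 7 blocks of the region, for the 3 comparisons of accessibility. From H2-D1 to Pou5f1 40.0% of sites were higher in M1 24 h over M0 0 h, and before H2-K1 50.9% were lower in M1 → M0 96 h over M0 0 h.

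Promoters made up a large part of the sites called lower after washout, but their median difference was not the largest. The median was -0.39 at promoter, -0.29 at intronic, -0.54 at intergenic and -0.38 at exonic sites. Median GC content was 56.5%, 48.3%, 47.5% and 50.6% in the same order. Of 191 promoter sites 78 were lower (40.8%, against 16.9% of all promoter sites of the series) and 9 higher. Intronic sites had 20 lower (18.7%, against 6.91% of all intronic sites) and 5 higher of 107. Intergenic sites had 23 lower (17.7%, against 8.2%) and 6 higher of 130, and exonic sites 5 lower (20.8%, against 9.76%) and 0 higher of 24. Besides the Angptl4 pair, the 4 largest falls with enough counts (of 69 such sites) held an intronic site of Col11a2 (chr17:34057005-34057993), a collagen gene, with 34.9, 25.4 and 55.4 normalized counts in M1, 29.7, 30.8 and 46.3 in M1 → M0 and 85.0, 53.3 and 70.2 in M0 (-1.03 ± 0.20 for M1 → M0 over M0, adjusted p = 5.18e-05). They also held a site 44 bases before a start of Brd2 (chr17:34120291-34120621), with 55.8, 54.4 and 45.7 in M1, 43.3, 36.4 and 23.1 in M1 → M0 and 69.3, 73.0 and 71.8 in M0 (-1.02 ± 0.18, adjusted p = 1.71e-05). The Brd2 site was lowest in every washout library, and in M1 its difference from M0 did not pass (-0.41, adjusted p = 0.0904).

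Among the 10 higher sites that averaged 50 normalized counts or more in M1 → M0 or M0 and whose libraries did not overlap, the 3 largest rises behind the Olfr99 site lay beyond Rpp21. A site 4684 bases past the start of H2-M10.2 (chr17:36281323-36282291) had 40.1, 45.0 and 19.6 normalized counts in M1, 49.4, 39.5 and 70.3 in M1 → M0 and 33.8, 27.8 and 38.5 in M0 (0.63 ± 0.21 for M1 → M0 over M0, adjusted p = 0.0239). A site 368 bases before Olfr110 (chr17:37491566-37492635) had 52.3, 49.3 and 29.4 in M1, 86.5, 90.9 and 84.5 in M1 → M0 and 56.5, 64.9 and 53.6 in M0 (0.60 ± 0.15, adjusted p = 0.00237). A site 171 bases before Olfr111 (chr17:37525435-37526144) had 68.0, 68.9 and 42.4 in M1, 79.8, 94.9 and 83.7 in M1 → M0 and 51.2, 56.7 and 65.0 in M0 (0.58 ± 0.15, adjusted p = 0.00343). These 3 calls were lost with DESeq2 (adjusted p = 0.14, 0.051 and 0.0599) and with the GC offsets (0.108, 0.269 and 0.259), while that of the Olfr99 site was not.

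Against the M1 cells they came from, the washout cells were lower over most of the region. In M1 → M0 96 h over M1 24 h, 15 of 452 sites were higher (3.32%, against 10.8% of all sites tested) and 165 lower (36.5%, against 12.4%), with a median of -0.46 in the region and 0.02 over all sites. The libraries lay wholly above those of M1 at 26 sites (5.75%, against 19.6% of all sites tested) and wholly below at 162 (35.8%, against 17.2%). Without M1 replicate 2, the deepest of its group, 90 sites were lower, and without M1 → M0 replicate 2, as with DESeq2, 9 were higher. In the class II block 53 of 97 were lower (54.6%) and none higher (median -0.81), before H2-K1 30 of 57 were lower (52.6%, -0.67) and in class III 47 of 107 (43.9%, -0.50). From H2-D1 to Pou5f1 7 of 20 were lower (-0.65), from Pou5f1 to H2-T24 18 of 64 and from H2-T24 to Rpp21 7 of 28, and beyond Rpp21 14 were higher and 3 lower of 79. With the GC offsets the sites before Rpp21 had 4 higher and 117 lower, and those beyond it 13 and 4. By class, 84 of 191 promoter sites (44.0%, against 15.4% of all promoter sites), 42 of 107 intronic (39.3% against 12.1%) and 36 of 130 intergenic sites (27.7% against 11.3%) were lower, and 4, 5 and 6 higher. Exonic sites were lower at 3 of 24, or 12.5%, near the 12.4% of all exonic sites, and higher at 0.

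After the Hnrnpm site, the 3 largest falls of washout cells against M1 (of 84 such sites) belonged to H2-Ab1, Brd2 and Tapbp. A site 1491 bases before the main start of H2-Ab1 (chr17:34261493-34261944), the gene of a class II β chain, and within an intron of it had 61.0, 68.2 and 65.2 normalized counts in M1, 12.8, 12.7 and 18.7 in M1 → M0 and 27.9, 27.8 and 21.1 in M0. M1 was above M0 (1.35 ± 0.24, adjusted p = 5.82e-06) and M1 → M0 was below both M0 (-0.81 ± 0.28, adjusted p = 0.0288) and M1 (-2.16 ± 0.26, adjusted p = 8.77e-10), with no overlap between the 3 conditions. A site 57 bases past the start of Tapbp (chr17:33919122-33920017), the gene of tapasin, which holds class I molecules at TAP, had the same order, with 130.8, 160.3 and 146.8 in M1, 66.9, 53.0 and 25.8 in M1 → M0 and 88.5, 73.0 and 77.0 in M0 (0.88 ± 0.16, -0.69 ± 0.17 and -1.57 ± 0.17). An intergenic site 3601 bases past a start of Brd2 (chr17:34109774-34110490) had 47.1, 65.3 and 39.1 in M1, 16.9, 10.3 and 16 in M1 → M0 and 18.0, 20.8 and 34.0 in M0 (-1.91 ± 0.29 for M1 → M0 over M1, adjusted p = 3.05e-07). Of the 4 largest rises, 3 are given above (Znrd1as, H2-T3 and Olfr110). The last was a site 3097 bases before H2-M5 (chr17:36992200-36993069), with 48.8, 37.7 and 29.4 in M1, 58.8, 53.8 and 60.5 in M1 → M0 and 48.9, 39.4 and 46.1 in M0, near the threshold (0.54 ± 0.21, adjusted p = 0.0494, and 0.142 with DESeq2).

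The region's share of all counted reads was 0.441% ± 0.0196 in M1, 0.337% ± 0.0106 in M1 → M0 and 0.422% ± 0.0148 in M0 (SD, n = 3 each). The 3 washout libraries lay below all others. By a two-sided exact permutation test the p was 0.1 for M1 → M0 against either M0 or M1, the smallest that 3 against 3 libraries allow, and 0.3 for M1 against M0. Within chromosome 17 the region held 10.067% of counts in M1, 8.134% in M1 → M0 and 9.549% in M0.

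RNA of the region rose in M1 more often than RNA over the genome and stayed partly raised after washout. Of the 103 genes of the window in the RNA table, 49 (47.6%) were higher in M1 24 h than in M0 0 h and 23 (22.3%) lower by limma on log2(FPKM + 1), against 35.9% and 25.2% of all 8307 genes. In M1 → M0 96 h over M0 0 h, 22 were higher (21.4%) and 7 lower (6.8%), against 14.0% and 8.39%. Over M1 24 h, 19 were higher (18.4%) and 47 lower (45.6%), against 25.0% and 32.1%. Over M0 96 h, cells of the same time in culture, 25 were higher (24.3%) and 8 lower (7.77%), against 10.7% and 7.19%. The lower genes numbered 5 without M0 96 h replicate 2, 5 without M1 → M0 replicate 1 and 4 without M1 → M0 replicate 3. In M1 the H2-K1 to Notch4 block had 14 of 16 genes higher (median 2.27), H2-D1 to Pou5f1 5 of 5 (4.21) and H2-T24 to Rpp21 4 of 4 (3.76), while before H2-K1 6 were higher and 11 lower of 23 (-0.26). A log2 difference on this scale understates the change of genes of low FPKM. The shares of all 8307 genes given here also stand beside the RNA counts of the listed genes below.

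Class I heavy chain genes rose together in M1 and were still raised after washout. All 12 of the 22 listed genes that were in the RNA table were higher in M1 (median 3.72), 10 were higher in M1 → M0 than in M0 0 h (median 0.86), 10 than in M0 96 h (0.88), and 11 were lower in M1 → M0 than in M1. Genes such as H2-Q7 reached the level needed for the table in M1 and not in M1 → M0 or M0 0 h, so part of this count was built in. H2-K1, the K heavy chain, had 2177.0, 2446.4 and 2207.0 FPKM in M1, 643.2, 542.8 and 540.3 in M1 → M0 and 327.2, 285.8 and 338.9 in M0 0 h, with M0 96 h at 285.9 to 337.3. The washout libraries thus lay between the others (2.84 ± 0.12 for M1 and 0.86 for M1 → M0 over M0 0 h). H2-D1, the D heavy chain, was near the threshold in M1, with 1724.3, 2192.2 and 1789.6 FPKM in M1, 863.4, 815.5 and 752.4 in M1 → M0 and 471.7, 518.5 and 645.3 in M0. Every M1 library lay above every M0 library. Its difference in M1 (1.81 ± 0.73, adjusted p = 0.0262) did not pass with a pseudocount of 0.1 (adjusted p = 0.0902) or without M0 replicate 1, M0 replicate 2 or M1 replicate 2 (0.0554 to 0.0676). It passed in the other alternatives, with adjusted p = 0.000179 in a fit of these 2 groups alone and 0.00518 with a pseudocount of 5.

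Among the Q and T genes, nonclassical class I genes, the log2 difference of M1 over M0 ran from 2.59 (H2-T10) to 5.64 (H2-Q6). H2-Q7 lay at 93.6, 85.0 and 81.8 FPKM in M1, 2.79, 7.3 and 5.77 in M1 → M0 and 1.46, 0.908 and 1.2 in M0 (5.33 in M1 and 1.45 in M1 → M0), and H2-Q6 differed by 5.64 and 1.47. H2-T24 had 138.8, 125.2 and 128 in M1, 15.7, 10.8 and 11.2 in M1 → M0 and 5.96, 3.49 and 4.5 in M0 (4.56 and 1.27). H2-T23, the Qa-1 heavy chain that presents to NK receptors, had 375.2, 533.3 and 422.2 in M1, 60.8, 88.8 and 72.5 in M1 → M0 and 33.6, 39.5 and 46.7 in M0 (3.44 and 0.87). H2-M3, which presents N-formylated bacterial peptides, had 91.9, 91.6 and 90.5 in M1, 20.9, 19.7 and 20.6 in M1 → M0 and 8.78, 11.5 and 11.1 in M0 (3.02 and 0.91). Some of the Q and T genes are close copies of one another, so reads may be split among those and their single values, of RNA and of promoters, are uncertain.

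The promoters of class I genes moved less than their RNA. Of 13 distinct promoter sites tested, 9 were higher in M1 over M0 and none lower (median 0.53), 2 higher and 2 lower in M1 → M0 over M0, and 8 lower in M1 → M0 over M1. Beside this list and those below, 97 genes of the window had both RNA and a promoter site. In M1 over M0 18 of the 97 had a higher and 4 a lower promoter site. After washout 60 of them were lower than in M0 and 65 lower than in M1. The H2-D1 promoter had 269.4 ± 10.9 normalized counts in M1, 128.6 ± 10.2 in M1 → M0 and 178.4 ± 9.5 in M0 (0.60 and -0.47), and that of H2-K1 193.1 ± 12.6, 106.7 ± 8.85 and 145.6 ± 12.2 in the same order (0.41 and -0.43, SD with n = 3 throughout). At both the washout level was called below M0 0 h, while H2-K1 RNA was called above it. The GC content of these sites was 64.9% at H2-D1 and 63.2% at H2-K1. All tested sites of the GC-richest decile (57.0% to 83.9%) had a median of -0.26 for M1 → M0 over M0. The part of GC content in the fall at single promoters was not tested. H2-T23 gained most among the promoters of over 100 counts, with 218.1 ± 12.9 in M1, 99.6 ± 8.99 in M1 → M0 and 112.6 ± 9.51 in M0 (0.96 and -0.20). The 2 promoters still higher after washout were that of H2-M3, at 302.6 ± 30.7 in M1, 287.2 ± 18.2 in M1 → M0 and 214.3 ± 11.7 in M0 (0.51 and 0.43), and that of H2-M2, at 23.6 ± 12.0, 19.5 ± 1.7 and 9.47 ± 2.37 (1.29 and 0.97). H2-M3 RNA was still called higher there too, and H2-M2 RNA was not, at 5.98, 0.438 and 0.524 FPKM on average.

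Class II genes rose in M1, and 3 of them were lower after washout than in M0 0 h. All 5 of the 9 listed genes in the RNA table were higher in M1 (median 1.91). After washout 3 were lower than in M0 0 h and none higher (median -2.04), 3 were lower than in M0 96 h (median -1.0), and all 5 were lower than in M1. H2-Ab1 had 186.1, 164.9 and 134.0 FPKM in M1, 6.41, 7.46 and 6.39 in M1 → M0, 26.9, 30.1 and 36.0 in M0 0 h and 22.9, 19.5, 10.4 and 9.13 in M0 96 h. The differences over M0 0 h were 2.34 ± 0.34 in M1 (adjusted p = 3.92e-09) and -2.04 ± 0.34 in M1 → M0 (adjusted p = 1.79e-06). Over M0 96 h the difference was smaller (-1.0, adjusted p = 0.0187) and was not called under a pseudocount of 5, in a fit of these 2 groups alone or without any of 4 single libraries. H2-Eb1, another class II β chain gene, had 80.9, 99.3 and 78.5 in M1, 0.929, 5.93 and 3.2 in M1 → M0, 20.0, 30.1 and 35.4 in M0 0 h and 17.2, 18.1, 14.6 and 10.5 in M0 96 h (1.59 and -2.91 over M0 0 h, -2.05 over M0 96 h). H2-Aa, the α chain that pairs with H2-Ab1, had 162.6, 167.0 and 138.2 in M1, 3.96, 15.3 and 6.85 in M1 → M0, 29.0, 44.3 and 51.9 in M0 0 h and 31.0, 30.6, 26.1 and 14.8 in M0 96 h (1.91, -2.27 and -1.58). At all 3 genes no washout library reached a library of M0 0 h.

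The class II genes that edit peptides were not called after washout over M0 0 h. H2-DMa, a chain of the peptide exchange factor, had 70.9, 100.4 and 80.3 FPKM in M1, 16.2, 17.5 and 15.2 in M1 → M0 and 21.2, 15.2 and 16 in M0 (2.2 and -0.08), and H2-DMb1 had 29.6, 50.4 and 36.4 in M1, 14.4, 18.1 and 15.6 in M1 → M0 and 12.5, 11.7 and 18.2 in M0 (1.39 and 0.19). For both the M1 → M0 and M0 libraries overlapped, and whether they differ from the H2-A and H2-E genes was not tested.

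At 8 class II promoter sites tested, 1 was higher and 1 lower in M1 over M0 (median 0.26), 4 lower in M1 → M0 over M0 (-0.62) and 7 lower in M1 → M0 over M1 (-0.87). The H2-Ab1 site with most reads, at an upstream start (chr17:34257395-34258169), had 72.4 ± 10.4 normalized counts in M1, 31.5 ± 11.8 in M1 → M0 and 51.6 ± 9.73 in M0, which was not called in M1 (0.44, adjusted p = 0.0831) and was lower after washout (-0.73). The site at its main start (chr17:34263010-34263659), chosen after its values were seen, had 52.3, 62.4 and 32.6 in M1, 31.8, 27.7 and 35.6 in M1 → M0 and 38.4, 39.4 and 43.1 in M0 and was called only for M1 → M0 over M1 (-0.78, adjusted p = 0.00734). H2-Aa had few reads, with 19.9 ± 9.64 in M1, 7.47 ± 3.89 in M1 → M0 and 21.1 ± 3.15 in M0 (0.09 and -1.46). The site shared by H2-DMa and Brd2 (chr17:34119016-34119949) had 184.7 ± 12.3 in M1, 118.0 ± 6.82 in M1 → M0 and 227.8 ± 13.4 in M0 (-0.30 and -0.94), so it was lower after washout although neither gene's RNA was called. Its GC content was 66.3%, within the GC-richest decile of all sites, whose median for M1 → M0 over M0 was -0.26. The only class II promoter higher in M1 was that of H2-DMb1 (0.61), and the lower one was that of H2-DMb2 (-0.39).

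The 5 peptide processing genes were all higher in M1 by RNA (median 3.35), and 4 were still higher after washout than in M0 0 h (median 0.73) and than in M0 96 h (0.94). Tap1, a subunit of the peptide transporter, had 446.9, 424.6 and 423.3 FPKM in M1, 24.9, 43.9 and 38.5 in M1 → M0 and 18.2, 15.1 and 16.6 in M0 (4.62, and 1.03 with adjusted p = 0.0011). The immunoproteasome subunits Psmb8 and Psmb9 differed by 2.69 and 3.70 in M1 and by 0.73 and 1.08 in M1 → M0. Tapbp, at 818.7, 853.5 and 806.9 FPKM in M1, 94.5, 109.7 and 96.4 in M1 → M0 and 91.2, 77.6 and 96.3 in M0, was the one not called after washout (3.22 and 0.18). Of 4 distinct promoter sites, the one with most reads per gene, 2 were higher in M1, and after washout 3 were lower than in M0 and all 4 lower than in M1. The site counted for Tapbp was one shared with Zbtb22 (-0.05 in M1). The Tapbp site 57 bases past another start, given above, was higher in M1 (0.88, adjusted p = 5.9e-06) and is not in this count. Over the window that was so for 60 and 65 of 97 genes. The site between Tap1 and Psmb9, which lie head to head and share it, had 229.3 ± 6.91 normalized counts in M1, 118.3 ± 7.26 in M1 → M0 and 165.2 ± 13.9 in M0 (0.46 and -0.49), so after washout accessibility was lower and RNA of both genes higher than in M0 0 h. Its GC content was 60.7%, within the GC-richest decile of all sites, whose median for M1 → M0 over M0 was -0.26. Psmb8 gained most, with 156.5 ± 20.3, 78.5 ± 12.5 and 85.0 ± 12.5 in the same order (0.94 and -0.11). The Tap2 promoter site with most reads was not called in M1 (-0.21), while a second one (chr17:34203440-34203721), looked up after its values were seen, averaged 20.2 normalized counts in M1, 7.93 in M1 → M0 and 6.54 in M0, and it passed the filter only through M1 and M1 → M0. Tap2 RNA rose by 3.35 in M1 and its annotation overlaps a readthrough gene, so its reads may be shared.

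In the TNF cluster Tnf, Aif1 and Lst1 were in the RNA table, and all 3 were higher in M1. Tnf had 63.1, 64.9 and 79.3 FPKM in M1, 22.8, 12.0 and 17.3 in M1 → M0 and 8.82, 12.7 and 4.21 in M0 (2.97, and 1.00 with adjusted p = 0.14 after washout). Aif1, a calcium-binding macrophage protein, differed by 3.17 and 0.83 (adjusted p = 0.121 after washout). Lst1, a leukocyte gene, had 519.9, 808.3 and 681.0 in M1, 348.8, 243.2 and 227.5 in M1 → M0 and 137.2, 166.0 and 169.0 in M0 (2.07, and 0.77 with adjusted p = 0.0473), and its call after washout was lost without any one of the 6 libraries. Of 4 promoter sites 2 were higher in M1. After washout those of Tnf, Lst1 and Nfkbil1 were lower than in M0, and those of Tnf, Aif1 and Nfkbil1 lower than in M1. Over the window the promoter site was lower for 60 and 65 of 97 genes in these 2 comparisons. The Tnf promoter had 84.4 ± 3.0 normalized counts in M1, 38.3 ± 6.53 in M1 → M0 and 61.4 ± 2.9 in M0 (0.44, adjusted p = 0.0425, and -0.68).

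Of the complement and stress genes, Cfb had the largest RNA rise of the whole window. The gene, which encodes complement factor B, had 349.6, 348.5 and 357.3 FPKM in M1, 2.82, 4.08 and 4.77 in M1 → M0 and 1.09, 0.585 and 0.512 in M0 (7.69 ± 0.21 and 1.49). Its promoter site with most reads (chr17:34858593-34859091) lay at an annotated start inside the gene, whose first base is 34862518 on the - strand. That site had 25.8 ± 17.2 normalized counts in M1, 18.1 ± 3.38 in M1 → M0 and 20.2 ± 8.66 in M0, with no call in any comparison, on few reads. The site next to the gene's first base (chr17:34862133-34862438), 112 bases before another start, had fewer reads still and was looked up after its values were seen. It had 12.2, 17.4 and 6.52 in M1, 2.7, 5.54 and 2.67 in M1 → M0 and 2.91, 0 and 1.51 in M0, so every M1 library lay above every M0 library. It passed the filter only through M1, where it is high, so no test is given for it. Of the 6 genes of this list in the RNA table, Cfb alone was higher in M1 and Ddah2 (-1.59) and Bag6 (-0.50) were lower. None of the list's 8 promoter sites, for Cfb the one inside the gene, was called in M1. After washout 1 was lower than in M0 (Bag6, -0.61) and 4 lower than in M1.

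Among the chromatin and transcription genes, Daxx, a chaperone of histone H3.3, had 188.4, 143.0 and 150.9 FPKM in M1, 21.1, 18.5 and 21.2 in M1 → M0 and 12.6, 15.4 and 14.4 in M0 (3.41, and 0.49 with adjusted p = 0.04). Its promoter, the most accessible of the listed genes in M1, had 433.5 ± 55.5 normalized counts in M1, 180.4 ± 9.86 in M1 → M0 and 224.9 ± 3.42 in M0 (0.91 and -0.32). It was the 1 of 8 promoter sites of this list called higher in M1, while 2 were lower. After washout 5 of the 8 were lower than in M0, near the window's share of 60 of 97 genes. Brd2 had 306.7, 239.4 and 257.8 FPKM in M1, 78.5, 75.5 and 69.6 in M1 → M0 and 89.1, 101.4 and 83.5 in M0 (1.54 in M1). Of the list's genes in the RNA table, 7 in number, 3 were higher and 2 lower in M1, and 2 were higher after washout than in M0 0 h. Of the TRIM genes, Trim26 RNA was higher in M1 (0.51), and the promoter of Trim39 was the 1 of 2 called higher (0.36).

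Of the remaining listed genes, none of 7 in the RNA table was higher in M1 and 4 were lower. After washout 7 of 8 promoter sites were lower than in M0, against 60 of 97 genes of the window. Ier3, an early response gene, had 23.5, 23 and 23.8 FPKM in M1, 5.0, 3.2 and 3.89 in M1 → M0 and 23.9, 59.5 and 18.4 in M0, so RNA was lower in every washout library (-2.63 over M0 0 h and -1.33 over M0 96 h), as was its promoter (-0.67). Adamts10, a metalloprotease gene, had 1.98, 4.06 and 2.97 FPKM in M1, 7.66, 7.09 and 6.42 in M1 → M0 and 9.98, 10.9 and 11.1 in M0 (-1.57 in M1), and its promoter fell to 43.1 normalized counts in M1 and 44.9 in M1 → M0, against 76.0 in M0. The largest fall of RNA in M1 was that of Tcf19, a gene of the cell cycle, at 0.43, 0.638 and 0.746 FPKM in M1, 9.57, 28.5 and 29.1 in M1 → M0 and 9.04, 12.0 and 11 in M0 (-2.86 in M1 and 0.86 after washout). Kifc1 (a mitotic kinesin, -2.71), Angptl4, Nrm (-1.92) and Pram1 (-1.86) followed.

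Promoter accessibility, at the promoter site with most reads of each gene, was set beside RNA for the 97 genes of the window with both. In M1 over M0, 17 of the 45 genes with higher RNA had a higher promoter site and none a lower one, and 28 had no call. Tapbp, Tap2 and Cfb, counted among these 28, had another promoter site, given above, with higher values in M1 than in M0. Further promoter sites of the 28 genes were not compared as a set. Of the 23 with lower RNA, 2 (Adamts10 and Angptl4) had a lower promoter site and 21 no call. In M1 → M0 over M0 the 20 genes with higher RNA had 1 higher promoter site (H2-M3) and 6 lower ones (H2-K1, Psmb9, Tap1, Tap2, Lst1 and Tcf19). Of the 7 with lower RNA, 6 had a lower site (H2-Ke6, H2-Ab1, H2-Aa, Ddx39b, Ier3 and Dhx16). Of the 70 genes with no RNA call, 48 had a lower promoter site too, so a lower promoter was the usual state in this comparison. In M1 → M0 over M1, 32 of the 45 genes with lower RNA had a lower promoter site and so did 11 of the 19 with higher RNA. Across the 97 genes, of which several share a site, Pearson's r between both log2 differences was 0.58, 0.37 and 0.42 in these 3 comparisons.

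**Figure D4:**
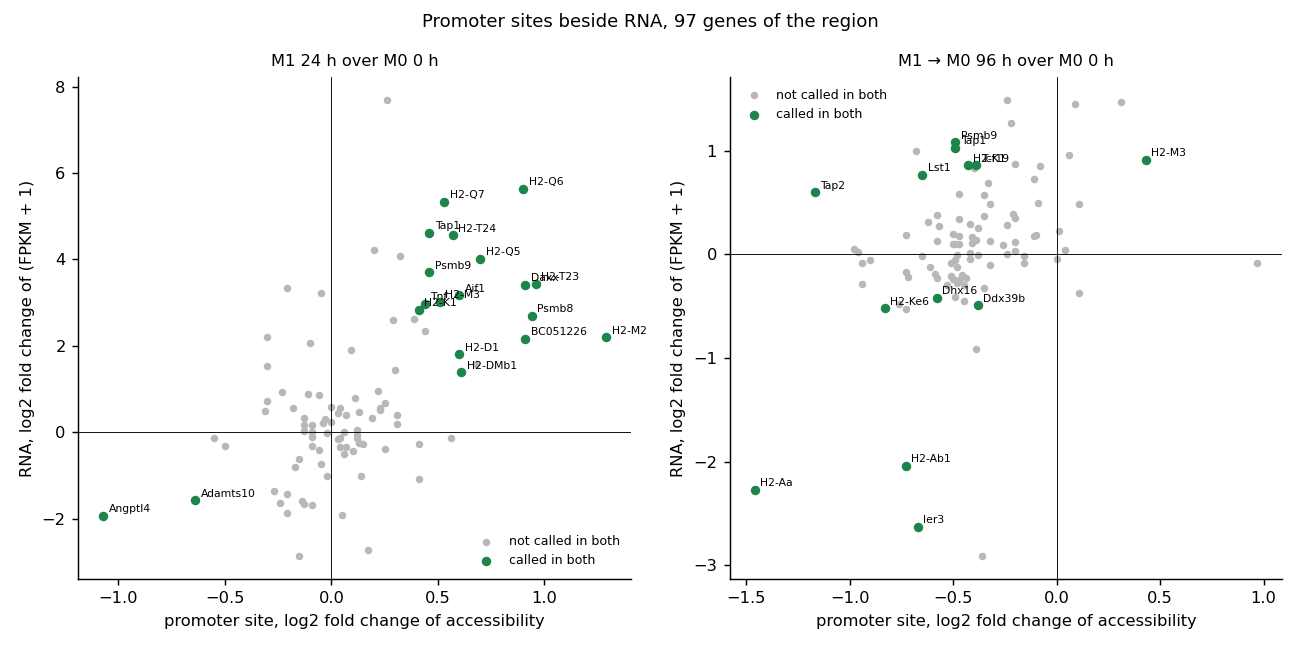
Log2 difference of RNA, on the log2(FPKM + 1) scale, against that of the promoter site for 97 genes of the window, in M1 24 h over M0 0 h (left) and M1 → M0 96 h over M0 0 h (right), with genes called in both shown in green. Pearson's r was 0.58 at left and 0.37 at right, where 60 promoter sites were lower and 2 higher.

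The RNA time course placed these end points. H2-Ab1 had 31.0 ± 4.59 FPKM at 0 h and, after 2 h in M1 medium, 40.7. It then reached 78.9 (4 h), 157.1 ± 21.8 (6 h), 191.3 ± 46.9 (12 h) and 161.7 ± 26.2 (24 h). After the wash it had 145.7 ± 19.4 (36 h), 77.7 ± 2.14 (48 h) and 6.75 ± 0.61 (96 h), while cells kept in M1 medium had 215.1 ± 72.9 at the last time. H2-Ab1 RNA was thus still above M0 0 h at 48 h, and below it at the last time. H2-DMa had 31.0 ± 10.6 (36 h), 13.4 ± 3.78 (48 h) and 16.3 ± 1.15 (96 h) after the wash, against 17.5 ± 3.28 at 0 h. In unstimulated cells H2-Ab1 also varied with time, with 17.6 (24 h), 3.01 ± 0.106 (48 h, 2 libraries) and 15.5 ± 6.77 (96 h). The unstimulated value at 48 h was thus below the 6.75 of washed cells at 96 h. H2-K1 had 317.3 ± 27.9 at 0 h, 2276.8 ± 147.7 at 24 h of M1, and after the wash 1111.1 (48 h) and 575.5 ± 58.7 (96 h), against 1749.5 ± 91.0 in cells kept in M1.

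Tap1 was early on both sides, with 16.6 FPKM unstimulated, 460.4 ± 11 (4 h) and 431.6 ± 13.3 (24 h) in M1, and after the wash 257.5 (28 h), 133.5 (30 h), 65.5 ± 24.0 (36 h) and 35.8 ± 9.79 (96 h). Cfb peaked at 547.4 ± 44.1 at 12 h, with 351.8 at 24 h, and after the wash had 45.4 at 48 h and 3.89 ± 0.987 at 96 h. Tnf was earliest, with 8.57 unstimulated, 2211.4 ± 353.4 (2 h), 123.9 (12 h) and 69.1 ± 8.88 (24 h) in M1, and 17.4 ± 5.41 at the end of the washout. The libraries at 1 h of M1 stood apart from each other (Tnf from 75.6 to 2925.1 FPKM), so the courses are given from 2 h.

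**Figure D5:**
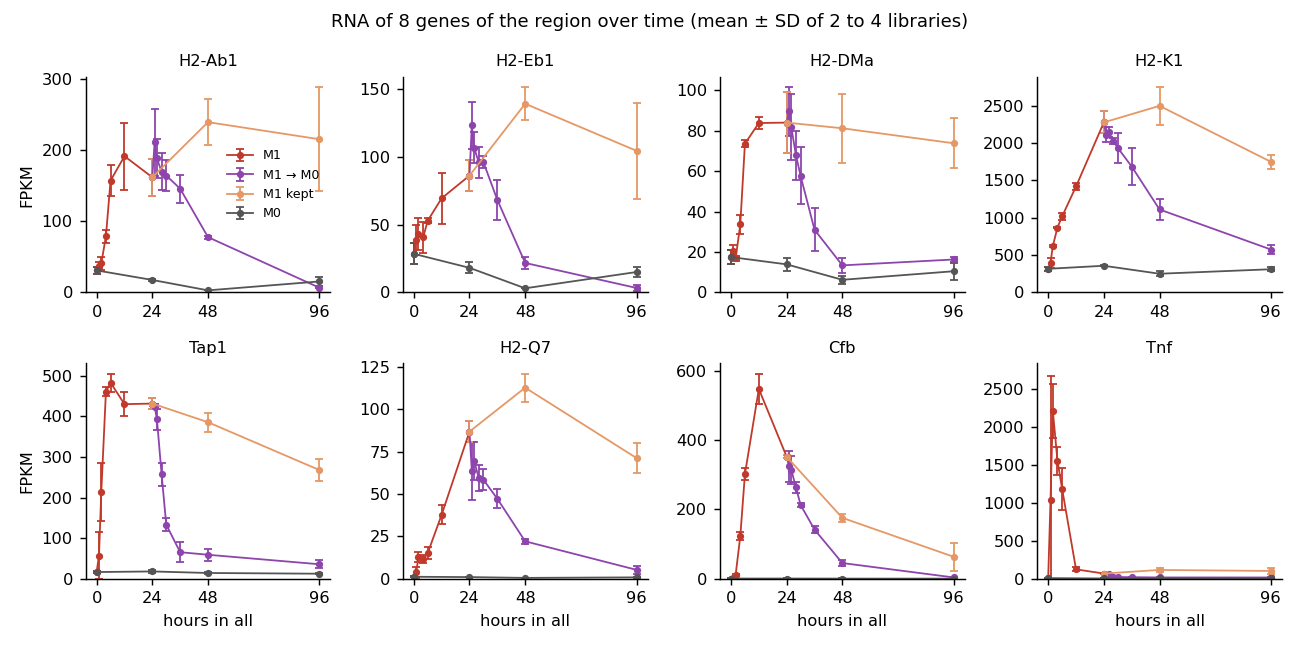
FPKM of 8 genes of the window from 0 to 96 h (mean ± SD of 2 to 4 libraries) in cells in M1 medium, in cells washed into base medium at 24 h and in cells never stimulated. H2-Ab1 fell to 6.75 at 96 h after the wash, against 215.1 in cells kept in M1 medium and 15.5 in unstimulated cells, while H2-K1 lay at 575.5, against 1749.5 and 311.2.

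Motif letters were counted in the 300 bases around the midpoint of the 452 sites, with the share of all 127086 sites beside them. AP-1 was in 14.4% of the region's sites (20.0% of all), the Y box in 13.9% (9.14%), IRF in 12.6% (12.0%), PU.1 in 6.64% (9.23%), NF-κB in 5.97% (4.26%), GAS in 5.75% (9.03%) and the X box in 1.55% (1.01%). Among the 82 sites higher in M1, AP-1 was in 23 (28.0%, against 35.7% of all sites higher in M1) and IRF in 16 (19.5%, against 17.8%). NF-κB letters were in 8.54% of them, against 5.05% of all sites higher in M1. These shares are a description with no test.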

How the data were processed

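ATAC-seq reads were aligned to mm10 by the authors, duplicates were removed with SAMtools (1.9), peaks were called on merged libraries with MACS2 (2.1.0) and reads were counted per site with bedtools (2.28.0), so the deposited values are raw counts at one shared set of sites. For bulk RNA-seq the authors aligned with TopHat2 (2.0.14) and obtained FPKM with Cuffnorm (2.2.2). They deposited log10(FPKM + 1) for each library, which was converted back here. Duplicate removal caps the count of the most open sites, and a library kit that does not mark strand leaves overlapping genes unresolved.

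Sites above 10 normalized counts (DESeq2 size factors) in at least 1 library were tested with edgeR 4.0.16 (TMM, quasi-likelihood) over the 9 libraries. The RNA was tested with limma 3.58.1 (mean-variance trend) on log2(FPKM + 1) over 145 libraries with 1 mean for each of 48 conditions. P-values were Benjamini-Hochberg adjusted over 127307 sites or 8307 genes. No RNA depth is given by FPKM values. Genes and classes came from GENCODE vM21, with the nearest gene taken among protein-coding starts.

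Sites named were the 6 largest gains and losses of M1 over M0, and 4 of each in the other comparisons, among called sites whose mean reached 50 normalized counts in either group and whose libraries did not overlap. For each listed gene (class I, class II, peptide processing, TNF cluster, complement and stress, chromatin, TRIM and others) the promoter site with most reads was used. Also named were the 5 largest RNA rises and falls in M1. The members and lists were chosen with earlier results of these data known. Deviations of RNA libraries with the same replicate number correlated at 0.134 to 0.493 between M1 24 h and M0 0 h. Between M1 → M0 96 h and M1 24 h they correlated at 0.168 to 0.338. For the RNA, correlations between different numbers were not computed, so a pairing of the libraries was not established. The RNA p-values given come from the fit without a replicate block. On simulated data 75% of changes of 1 on the log2 scale and 99% of changes of 2 were found at the sites of M1 24 h over M0 0 h (100 of each among 127307 sites), and 90% and 98% in the RNA of M1 24 h over M0 0 h (100 of each among 8307 genes). These changes were set only at sites and genes above a minimum mean, so detection at few reads or low FPKM was not measured. Alternatives covered the test, scaling, filter, pseudocount, replicate block, GC content, samples in the fit and single libraries. The values of 1 listed partner gene are not reported here.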

Additional observations from a re-analysis of the deposited data

Results flagged for a closer look

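In M0 96 h, the RNA of Lst1 had 1 library apart from the other 3 of the group, at 130.9 FPKM against 161.0 for the nearest. On the log2(FPKM + 1) scale its gap was 0.852 of the group's whole range, and chance sets about 1 in 20 such groups apart. No other value named for the window's genes met this criterion, and groups of 3 libraries were not tested.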

How the results depend on the processing

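With DESeq2 in place of edgeR the region had 26 sites lower in M1 over M0, 7 higher and 68 lower in M1 → M0 over M0 and 9 higher in M1 → M0 over M1. GC offsets gave 64 lower in M1 → M0 over M0. With M1 replicate 2 alone for its group, 24 were lower in M1 over M0 and 9 higher in M1 → M0 over M1. For the RNA the replicate block gave 15 genes lower in M1 → M0 over M0 0 h, where the same-number correlations were 0.225, -0.122 and -0.00924. For the sites the same-number correlations ran from -0.0901 to 0.0725. There the block gave 70 higher and 38 lower in M1 over M0, 16 and 110 in M1 → M0 over M0 and 11 and 141 in M1 → M0 over M1. The causes of these shifts were not tested.

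Without single libraries, M1 over M0 had 55 to 89 higher and 31 to 41 lower sites. M1 → M0 over M0 had 9 to 16 higher (9 without M0 replicate 1, 12 without M0 replicate 2, 11 without M1 → M0 replicate 1) and 75 to 105 lower (83 without M0 replicate 1, and 78, 75 and 79 without M1 → M0 replicates 1, 2 and 3). M1 → M0 over M1 had 9 to 16 higher (9 without M1 → M0 replicate 2) and 90 to 170 lower (90 without M1 replicate 2). RNA lower in M1 → M0 over M0 96 h ranged from 4 to 6 genes (5 without M0 96 h replicate 2, 5 without M1 → M0 replicate 1, 4 without M1 → M0 replicate 3). Over the alternatives, 20 values of named sites lost their call and the rest kept call and direction. Of those of listed genes' RNA 1962 kept both, 61 lost and 39 gained the call, and none of the values run reversed. M1 replicate 3, with 1730488 counts, limits what the M1 sites can show.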

Other observations

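Partners of the MHC genes that lie on other chromosomes were also in the RNA table, 14 of 17 listed. In M1 24 h 10 were higher than in M0 0 h and none lower (median 2.24), against 35.9% and 25.2% of all 8307 genes. After washout 6 were higher and 1 lower (median 0.52), against 14.0% and 8.39% of all genes. The counts over M0 96 h were the same, against 10.7% and 7.19% of all genes. B2m, the light chain of class I, averaged 9840.9 FPKM in M1, 2625.5 in M1 → M0 and 1731.2 in M0 0 h (2.51 and 0.59 over M0 0 h). Nlrc5, the coactivator of class I genes, averaged 90.6 in M1, 16.2 in M1 → M0 and 7.0 in M0 (3.51 and 1.10).

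The 1 partner lower after washout was Cd74, the invariant chain that occupies class II molecules during assembly. It had 637.6, 680.6 and 561.9 FPKM in M1, 33.0, 37.3 and 29.6 in M1 → M0 and 139.3, 153.7 and 187.6 in M0 0 h (1.97 and -2.23), with no overlap between the conditions. Its promoter site had 76.9 normalized counts on average in M1, 15.4 in M1 → M0 and 49.9 in M0 0 h (0.71 and -1.68, both called).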
